A study of Mus musculus with 5 samples.

Results

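The long intergenic noncoding RNAs (lincRNAs) expressed in mouse cholangiocarcinoma (CCA) tumours were compared between tumours with and without late Prox1 overexpression. Members were the genes that GENCODE vM21 (GRCm38, the sequence of mm10) annotates as lincRNA and whose normalised counts averaged 30 or more across all 5 libraries, leaving out H19, Meg3, Rian and 2900052N01Rik by name. This gave 322 genes, of 55397 Ensembl genes in the table and 5614 annotated lincRNAs, 2135 of them with at least 1 read. A normalised count is a read count divided by a size factor of its library, so that 1 read was worth 0.822 to 1.18 normalised counts. Members were thus selected on the mean normalised count of the same 5 libraries, and their levels are given as a description.

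LincRNAs are transcribed from their own promoters between protein-coding genes, and most are capped, spliced and polyadenylated but carry no long reading frame. Some act in the nucleus, as scaffolds of nuclear bodies or in silencing a chromosome, some serve as precursors of microRNAs or small nucleolar RNAs (snoRNAs), and at others the act of transcription bears on a gene nearby. Their expression is usually lower and more restricted to a cell type than that of messenger RNAs, and most have no known function.

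Tumours were raised in female C57BL/6N mice by hydrodynamic tail vein injection (HDTVI), which drives plasmid DNA into hepatocytes, at 8 weeks of age. All mice received Sleeping Beauty transposase with transposons for Akt and for NICD, the active intracellular part of NOTCH1, both under the EF1a promoter, a combination that gives tumours of bile duct character. Control mice (2 libraries, labelled EV, GFP control) received in addition a doxycycline-responsive transposon with GFP alone, and Prox1 OE mice (3 libraries) the same vector with FLAG-tagged mouse Prox1 before GFP. Doxycycline food started on day 21 to run Prox1 from week 3 to 4, and the NICD plasmid supplied the rtTA that doxycycline acts on, so that Prox1 was inducible only in cells holding both plasmids. Collection was after 1 week of overexpression or at the humane endpoint, and which held for which tumour was not stated. Nothing in the labels says that the libraries came from separate mice, so p-values measure the spread between these samples.

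Libraries held 48740863 to 56629477 reads, and the 322 lincRNAs took 0.303% and 0.269% of them in Control and 0.194%, 0.241% and 0.219% in Prox1 OE replicates 1, 2 and 3. Prox1, the targeted transcription factor, had 4153 and 4664 normalised counts in Control and 48089.8, 11113 and 8231 in Prox1 OE, above both Control libraries in 3 of 3. The change was 1.90 on the log2 scale (SE 0.66, limma adjusted p = 0.0607) and missed the threshold of 0.05, but passed it without Prox1 OE replicate 1, at 1.12 with an adjusted p of 0.00556, and without Prox1 OE replicate 3, at 2.39 with an adjusted p of 0.0325. Plasmid and endogenous Prox1 reads were not separated. As for the labelled tissue, all markers of hepatocytes and bile duct cells were detected in each library. Of 8 hepatocyte markers 7 were higher and none lower in Prox1 OE (summed level 697801 to 1109220 in Control and 2183340 to 3434330 in Prox1 OE), and of 7 cholangiocyte markers 6 were lower (751608 to 820355 and 520376 to 703066). Most of the cholangiocyte sum was Spp1, the marker not called (log2 fold change of -0.34, limma adjusted p = 0.514). Spp1 had 784749 and 712010 in Control and 587974, 688825 and 509317 in Prox1 OE, so the sum says little of the other markers. All 6 cell cycle markers were lower (34036 to 49342 and 19362 to 25847). Among other cells, 2 of 7 macrophage markers (22635 to 27481 and 34310 to 52495) and 4 of 6 T and NK markers (208 to 302 and 408 to 634) were higher and none was lower, and 4 of 8 stellate cell and fibroblast markers were lower and 1 higher (122527 to 126904 and 67955 to 80317). Of 6 endothelial markers 2 were higher and 1 lower, and 1 of 3 B cell and 1 of 3 erythroid markers tested were higher. None of the markers listed was at 0 in any library. In bulk tissue, fewer cells of a type and less RNA per cell cannot be told apart, and the part of these lists in the lincRNA changes was not tested.

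More lincRNAs were higher than lower in Prox1 OE tumours. At a limma adjusted p under 0.05 over the 17105 genes tested (those whose mean reached 10), 83 of the 322 lincRNAs were higher and 28 lower in Prox1 OE, and 211 did not pass. That is 25.8% higher and 8.70% lower, where 17.1% of all genes tested were higher and 16.2% lower, and 34.5% called in either direction beside 33.3% of all genes. The median log2 fold change, on the log2(normalised count + 1) scale, was 0.26 for the lincRNAs and -0.02 for all genes tested, but when libraries were scaled by their total counts instead, which called 48.6% of all genes and put their median at -0.44, the lincRNA median turned to -0.16 with 56 higher and 72 lower. Changes are therefore relative to the typical gene. No called lincRNA turned its sign under that scaling or the other settings tried. Of the called lincRNAs, 75 (23.3% of the 322) rose by at least 1 on the log2 scale and 23 (7.14%) fell by at least 1, where 8.35% and 5.55% of all genes tested did. In 195 of the 322 (60.6%) the groups did not overlap, with 132 higher and 63 lower, beside 63.3% of all genes (30.9% higher and 32.4% lower).

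The choice of members bears on these counts. A lincRNA low in Control could reach the mean of 30 only through Prox1 OE: 59 had a Control mean under 30, of which 35 were called higher and none lower, and 13 had a Prox1 OE mean under 30, of which 6 were called lower. Among the 250 lincRNAs with both group means of at least 30, 48 (19.2%) were higher and 22 (8.80%) lower, with a median log2 fold change of 0.12. Over all 14384 genes with both group means of at least 30, 18.4% were higher and 17.9% lower. The higher share thus lay near the background in that set, and the lower share below it. With a change of at least 1 on the log2 scale asked for as well, 40 of these 250 were higher and 17 lower, beside 7.9% and 5.21% of the 14384 genes. The members just inside the limit were AC158605.1, 0610043K17Rik and Gm36723, with means of 30.1, 30.3 and 30.7, and the lincRNAs just outside were Gm43154, Gm41031 and Gm47467, with 29.8, 29.8 and 29.7.

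**Figure D1:**
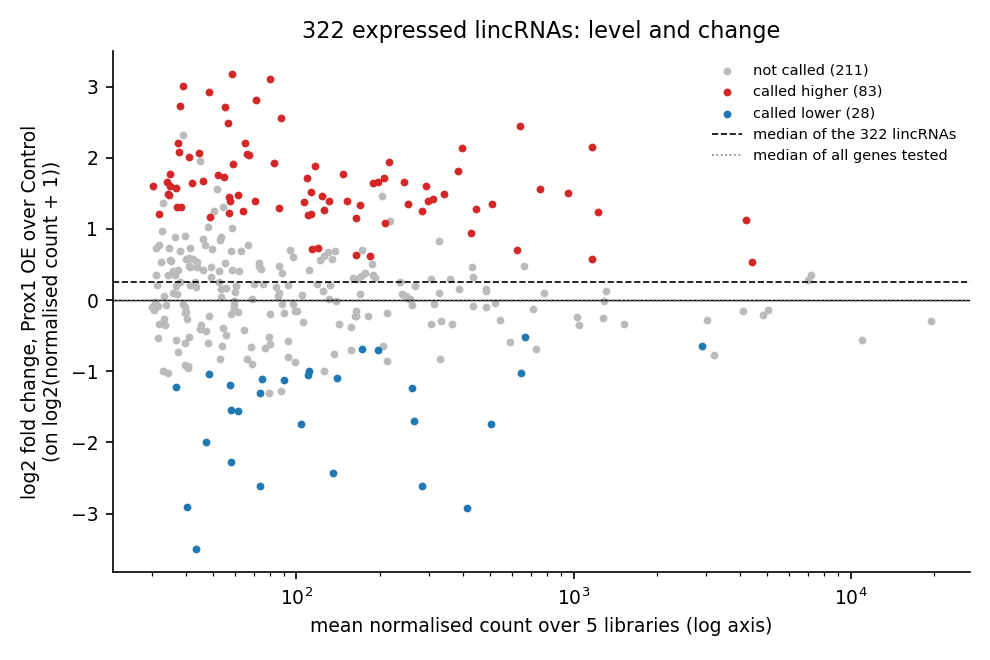
Each point is 1 of the 322 lincRNAs, with its mean normalised count over the 5 libraries on the x axis (log axis) and its log2 fold change of Prox1 OE over Control, on log2(normalised count + 1), on the y axis. Red points were called higher (83), blue points lower (28) and grey points not called (211). The dashed line is the median of the lincRNAs (0.26) and the dotted line that of all genes tested (-0.02). Called lincRNAs are found at means up to 4399, and the lincRNAs above that were not called.

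Calls depended on which libraries were kept, and on Control replicate 1 above all. Without Control replicate 1, 15 lincRNAs were called higher and 7 lower, with 6.77% of all genes called. Without Control replicate 2, 48 were higher and 11 lower (13.3% of all genes called), and without Prox1 OE replicate 2, 54 were higher (22.7% of all genes called). With 1 Control library left, that library was assumed to vary like the Prox1 OE libraries. All 111 called lincRNAs kept their sign in each of the 5 fits with a library left out, and 20 kept the call in each of them. Among the 83 higher lincRNAs, Prox1 OE replicate 3 had the highest of the 3 Prox1 OE values in 62 and replicate 1, the library with the most Prox1, the lowest in 48. In 64 of the 83, Control replicate 2 lay above Control replicate 1. Over all 322 lincRNAs, Prox1 OE replicate 3 was the highest in 142, replicate 1 the lowest in 169, and Control replicate 2 above Control replicate 1 in 202. Among the 28 lower lincRNAs, Prox1 OE replicate 1 had the highest Prox1 OE value in 19, as it did in 82 of all 322.

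The largest falls were in poorly studied lincRNAs and in Eprn (ephemeron), an RNA known from embryonic stem cells leaving the naive state. Gm10636 (chromosome 3, 146367153 to 146378944, minus strand) had 95.3 and 96.6 normalised counts in Control and 11.2, 10.6 and 3.47 in Prox1 OE replicates 1, 2 and 3. Control lay 11.4-fold above Prox1 OE by group means (log2 fold change of -3.49, SE 0.52, limma adjusted p = 0.00387), the deepest fall among the called lincRNAs. Gm37350 (chromosome 3, 5880832 to 5885503, minus strand) had 833 and 837 in Control and 237, 69.6 and 78.7 in Prox1 OE, with replicate 1 well above the other Prox1 OE libraries and far below Control (log2 fold change of -2.92, SE 0.49, limma adjusted p = 0.00537), and its call was lost without Control replicate 1 (adjusted p = 0.0505). Eprn (chromosome 13, 73344665 to 73347384, minus strand) was uneven in Control, at 772 and 377, and lay at 112, 79.1 and 74.1 in Prox1 OE. Its groups did not overlap, and it fell by 2.62 on the log2 scale (SE 0.34, limma adjusted p = 0.0029). 3830432H09Rik had 78.0 and 89.9 in Control and 16.4, 9.44 and 6.94 in Prox1 OE (log2 fold change of -2.91, SE 0.44, limma adjusted p = 0.00388). Gm35019 had 128 and 170.4 in Control and 27.6, 18.9 and 24.3 in Prox1 OE (limma adjusted p = 0.00261, log2 fold change of -2.61). These RNAs were thus several times lower in each Prox1 OE library than in either Control library. Gm10636, 3830432H09Rik and Gm35019, and Gm32443 below, had every Prox1 OE value under 30. They were members only through Control, so the direction of their change was set by the selection.

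Gm5546, with 252 and 273 normalised counts in Control and 62.4, 59.0 and 30.1 in Prox1 OE, and Gm32443, with 108 and 114 in Control and 28.6, 24.8 and 15.0 in Prox1 OE, had log2 fold changes of -2.42 and -2.28 (limma adjusted p = 0.00355 and 0.00449). The falls of Gm2379 (-2.00), G930009F23Rik (-1.75) and Zfp469 (-1.74) were smaller, with limma adjusted p of 0.0196, 0.0044 and 0.0128. Zfp469 carries the name of a zinc finger gene but is annotated as a lincRNA of 1 exon in this release, and had 969 and 735 in Control and 373, 294 and 145 in Prox1 OE. The lowest value was that of Prox1 OE replicate 3 in 8 of the 10 and of replicate 2 in Gm35019 and Gm37350, as the plot of the largest changes by library shows. Without Control replicate 1, the adjusted p was 0.0502 for Gm32443, 0.0977 for Gm2379, 0.0629 for G930009F23Rik and 0.11 for Zfp469. Gm2379 was also lost without Control replicate 2 (0.122).

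Most of the largest rises were from low levels in Control. LincRNAs with a Control mean under 30 were members only through Prox1 OE, so the direction of their change was set by the selection. This held for Gm28548, Gm49668, Gm11752 and Gm40438 here and for Gm32063 and Gm12498 below. Gm28548 (chromosome 9, 104361832 to 104385031, plus strand) had 12.3 and 5.93 normalised counts in Control and 59.3, 75.5 and 140.0 in Prox1 OE, a 10.0-fold rise of the mean (log2 fold change of 3.17, SE 0.48, limma adjusted p = 0.004). Gm49668 had 7.39 and 20.3 in Control and 110.4, 69.6 and 193 in Prox1 OE (log2 fold change of 3.11, SE 0.54, limma adjusted p = 0.00634), a call lost without Control replicate 1 (adjusted p = 0.0563). It lies antisense to Fam120b and shares exon sequence with it, and since the treatment of strand in counting was not stated, reads of the pair cannot be told apart. Fam120b had 1989 and 1774 in Control and 2161, 1896 and 1905 in Prox1 OE (log2 fold change of 0.08, SE 0.12, limma adjusted p = 0.651), with overlapping groups. Gm11752 (chromosome 11, 119220160 to 119222473, plus strand) had 4.11 and 10.2 in Control and 54.2, 56.6 and 69.4 in Prox1 OE (log2 fold change of 3.01, SE 0.44, limma adjusted p = 0.00358). Gm40438 was the most even of the 10, at 8.22 and 7.63 in Control and 56.2, 54.3 and 63.7 in Prox1 OE (log2 fold change of 2.72, SE 0.33, limma adjusted p = 0.00266). Gm28548 and Gm49668 were highest in Prox1 OE replicate 3, whereas the Prox1 OE values of Gm11752 and Gm40438 lay close together.

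Of the other 6 with the largest rises, 1810008I18Rik was the most abundant per length. It had 129 and 197 normalised counts in Control and 824, 531 and 1533 in Prox1 OE (log2 fold change of 2.45, SE 0.42, limma adjusted p = 0.00566), and its Prox1 OE replicate 3 stood apart as the highest. Gm32063 had 18.1 and 23.7 in Control and 86.9, 132 and 179 in Prox1 OE (log2 fold change of 2.56, SE 0.36, limma adjusted p = 0.00339). Gm12498 lay at 10.7 and 18.6 in Control and 91.0, 72.0 and 90.3 in Prox1 OE (log2 fold change of 2.49, SE 0.35, limma adjusted p = 0.0033). In both, every Prox1 OE library was at least 3-fold above the higher Control library. Gm32468 (2.93), AC151478.3 (2.82) and Gm37336 (2.71) had limma adjusted p of 0.00543, 0.00948 and 0.0064. Without Control replicate 1, the adjusted p was 0.0525 for Gm32468, 0.0828 for AC151478.3, 0.0587 for Gm37336 and 0.0577 for 1810008I18Rik, all with the rise in the same direction. Apart from these and Gm49668, the 5 others of the 10 kept the call with any 1 library left out.

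**Figure D2:**
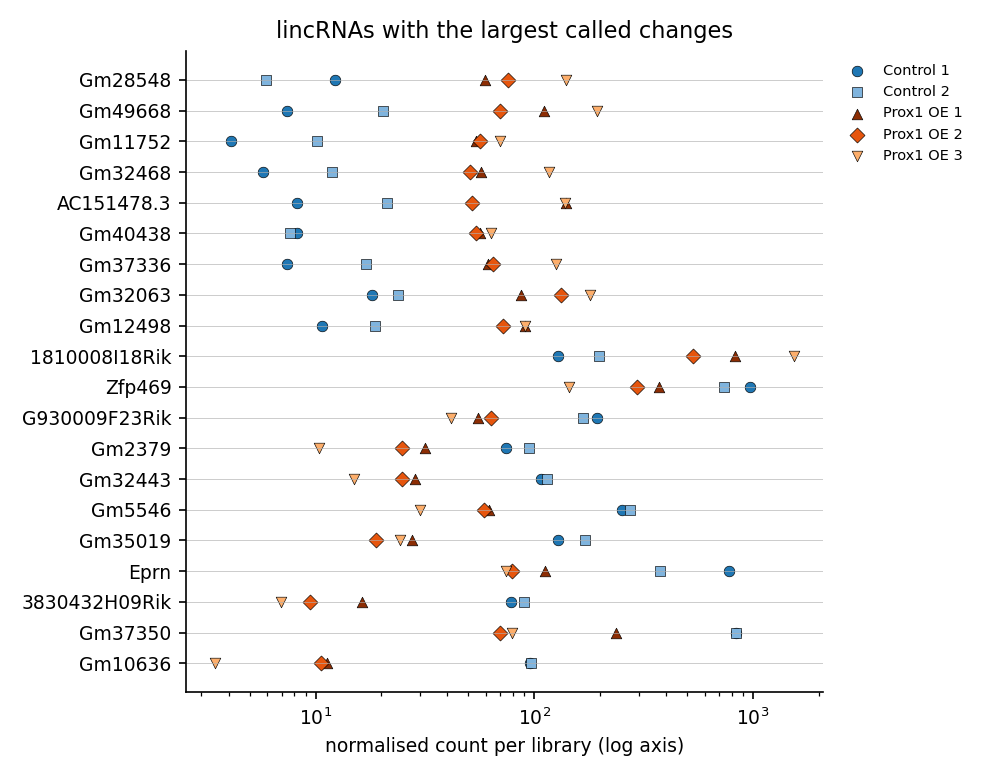
Normalised counts in each of the 5 libraries (x axis, log axis) for the 10 called lincRNAs with the largest rise and the 10 with the largest fall (y axis, ordered by log2 fold change). Blue symbols are the 2 Control libraries and brown to orange symbols the 3 Prox1 OE libraries. In all 20 the groups are apart, and Gm10636 (Control values nearly on top of each other) and Gm28548 mark the extremes at -3.49 and 3.17. LincRNAs with a group mean under 30 became members only through the other group, which set their direction.

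Promoter sequence was at hand in RefSeq (GRCm38.p6) for 177 of the 322 lincRNAs, as windows from 250 bases before to 50 after the RefSeq start, among them 48 called higher and 13 called lower. That start lay within 1 kb of the GENCODE gene start for 151 of the 177, so the shares below include windows farther off. The letters of 4 motifs were searched on both strands. CAAAGTCCA, a form of the site of HNF4, a hepatocyte nuclear receptor, stood in 0.475% of 32851 promoters and in 1 of the 177, that of Gm32063, one of the 10 largest rises. TGGGAA, the core bound by the Notch effector RBPJ, stood in 25.6% of all promoters, 31.3% of those called higher, 23.1% of those called lower and 18.1% of those not called. CCAAT stood in 37.4% and CACGTG in 7.15% of all promoters, in 40.7% and 10.2% of the 177. A match is a description of letters and shows no binding. The windows of 3 risers are shown with the matches in capitals (CAAAGTCCA in Gm32063, and CCAAT or its reverse complement ATTGG in the others): the lincRNA with the HNF4 letters, the lincRNA with the largest rise and the riser beside Treh described below. They are Gm32063 (chr13:41235796-41236095, plus strand, the RefSeq start being 299 bases from that of GENCODE), Gm28548 (chr9:104361581-104361880, plus strand) and BC049987 (chr9:44672211-44672510, minus strand), each written 5′ to 3′ on its own strand.
Gm32063: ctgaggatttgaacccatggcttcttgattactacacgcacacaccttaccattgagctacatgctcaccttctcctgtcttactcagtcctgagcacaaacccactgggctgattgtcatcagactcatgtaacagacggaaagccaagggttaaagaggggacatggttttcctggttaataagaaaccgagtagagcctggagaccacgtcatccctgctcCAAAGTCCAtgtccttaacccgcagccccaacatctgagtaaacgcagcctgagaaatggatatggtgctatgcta
Gm28548: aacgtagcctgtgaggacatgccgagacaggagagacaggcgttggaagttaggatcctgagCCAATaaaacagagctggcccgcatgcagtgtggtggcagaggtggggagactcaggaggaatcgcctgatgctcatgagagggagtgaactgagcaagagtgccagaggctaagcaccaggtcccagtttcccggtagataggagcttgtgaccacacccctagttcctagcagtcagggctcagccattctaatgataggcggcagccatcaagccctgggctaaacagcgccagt
BC049987: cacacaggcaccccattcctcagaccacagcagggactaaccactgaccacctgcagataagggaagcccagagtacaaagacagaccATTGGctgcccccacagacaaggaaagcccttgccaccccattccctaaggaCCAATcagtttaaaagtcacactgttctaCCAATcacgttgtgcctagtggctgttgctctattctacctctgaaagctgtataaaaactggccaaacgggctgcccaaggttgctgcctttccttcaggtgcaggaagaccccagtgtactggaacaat

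Of the lincRNAs with known functions, 20 members stood in the function lists, and 3 of them passed the test with the deposited size factors, where 33.3% of all genes tested were called. With so few genes in a list, a low count is a description only. In the list of nuclear body and X inactivation RNAs, 8 were tested, with 1 higher (Jpx) and 1 lower (Tug1, annotated as antisense), and 5 were members. Malat1, of the nuclear speckles, had 4494 and 6209 normalised counts in Control and 4364, 5164 and 4973 in Prox1 OE (log2 fold change of -0.13, SE 0.16, limma adjusted p = 0.56). Neat1, the scaffold of paraspeckles, had 4956 and 7484 in Control and 7866, 9432 and 5463 in Prox1 OE (log2 fold change of 0.28, SE 0.26, limma adjusted p = 0.432). The groups overlapped for both RNAs, but scaled by total counts Malat1 passed as lower (-0.56, adjusted p = 0.0184). Of 7 proteins of the paraspeckle, 4 were lower (Nono, Sfpq, Tardbp and Hnrnpk) and none higher, with a summed level of 63311 to 65155 in Control and 45261 to 49889 in Prox1 OE. Xist, which coats the inactive X chromosome of female cells, had 21436 and 22009 in Control and 15967, 16408 and 21466 in Prox1 OE (log2 fold change of -0.29, SE 0.16, limma adjusted p = 0.208), and passed as lower under total-count scaling (-0.72, adjusted p = 0.00371). Jpx, an activator of Xist, had 131 and 146 in Control and 190.2, 234 and 218 in Prox1 OE, with groups apart (log2 fold change of 0.62, SE 0.20, limma adjusted p = 0.0469). The call of Jpx was lost without Control replicate 1, Control replicate 2, Prox1 OE replicate 2 or Prox1 OE replicate 3 (adjusted p of 0.293, 0.169, 0.123 and 0.102), and under total-count scaling (0.506), without a filter (0.0729) and with edgeR (0.0533). Ftx, also of the X inactivation center, differed little between groups, at 164 and 161 in Control and 173, 169.9 and 177 in Prox1 OE (log2 fold change of 0.09, SE 0.18, limma adjusted p = 0.731).

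None of the 5 members in the list of snoRNA hosts passed the limma test, with 0 at an unadjusted p under 0.05, and edgeR and DESeq2 called 0 as well, where limma called 33.3%, edgeR 33.7% and DESeq2 38.9% of all genes tested. Of 18 tested in the whole list 1 was higher (Snhg11, annotated as protein coding) and none lower, with 2 at an unadjusted p under 0.05. Snhg18 had 3374 and 3397 normalised counts in Control and 2535, 3318 and 2560.1 in Prox1 OE (log2 fold change of -0.28, SE 0.15, limma adjusted p = 0.171), and with a library left out passed only without Prox1 OE replicate 2 (-0.41, adjusted p = 0.0497). Snhg6, Snhg12, Snhg20 and Epb41l4aos had log2 fold changes of -0.25, -0.13, -0.28 and 0.15, with limma adjusted p of 0.308, 0.652, 0.254 and 0.704. Scaled by total counts, Snhg6, Snhg12, Snhg18 and Snhg20 passed as lower, with log2 fold changes of -0.68, -0.56, -0.71 and -0.71 and adjusted p of 0.0113, 0.0469, 0.0108 and 0.0155. In all 5 hosts Prox1 OE replicate 1 had the lowest value of the 5 libraries. Of 8 proteins of the snoRNA particle, 1 was higher (Nop10) and 2 lower (Nop58 and Dkc1). Among the machineries that remove noncoding transcripts, 2 of 14 genes of the RNA exosome and its targeting were higher and 2 lower, and 3 of 6 genes of nonsense-mediated decay (Upf2, Smg1 and Smg6) were lower and none higher.

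None of the 5 members linked to p53 or growth was called by limma, edgeR or DESeq2, nor any of the 7 genes tested in that list, with 0 at an unadjusted p under 0.05 (called over all genes tested were 33.3%, 33.7% and 38.9%). Norad (2900097C17Rik here), which binds Pumilio proteins, had 3999 and 4722 normalised counts in Control and 3708, 3955 and 4075 in Prox1 OE (log2 fold change of -0.15, SE 0.12, limma adjusted p = 0.36). Cyrano (1700020I14Rik here, Oip5os1), a regulator of miR-7, had 4922 and 5558 in Control and 4333, 4457 and 4786 in Prox1 OE (log2 fold change of -0.21, SE 0.11, limma adjusted p = 0.195). These abundant RNAs had mean levels slightly lower in Prox1 OE without passing the test, and passed under total-count scaling (-0.58 and -0.64, adjusted p of 0.00705 and 0.00403). Pvt1, the neighbour of the growth gene Myc, had 153 and 181 in Control and 178, 219 and 226 in Prox1 OE (log2 fold change of 0.31, SE 0.21, limma adjusted p = 0.276), whereas Myc itself fell (log2 fold change of -0.74, SE 0.13, limma adjusted p = 0.00659). Lockd, which lies downstream of the cell cycle inhibitor gene Cdkn1b, had 465 and 359 in Control and 238, 374 and 381 in Prox1 OE (log2 fold change of -0.33, SE 0.25, limma adjusted p = 0.335), whereas Cdkn1b fell (log2 fold change of -0.78, SE 0.11, limma adjusted p = 0.00326), and Lockd passed as lower under total-count scaling (-0.76, adjusted p = 0.0343). Trp53cor1 (lincRNA-p21), beside Cdkn1a, had 62.4 and 61.9 in Control and 65.4, 44.8 and 35.9 in Prox1 OE (log2 fold change of -0.39, SE 0.33, limma adjusted p = 0.399). A difference between each RNA and its neighbour was not tested.

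In the list linked to cell fate 7 genes were tested, with 1 higher and 2 lower, where 17.1% of all genes tested were higher and 16.2% lower. Dubr was the called one among its 2 members, and with so few genes these counts are a description only. Dubr (Dppa2 upstream binding RNA, chromosome 16, 50719294 to 50732773, minus strand), studied in muscle differentiation, had 946 and 913 normalised counts in Control and 434, 468 and 469 in Prox1 OE. Its groups were far apart, with means of 929.7 ± 23.7 (SD, n = 2) in Control and 457 ± 20.2 (SD, n = 3) in Prox1 OE and a limma log2 fold change of -1.02 (SE 0.13, adjusted p = 0.0029), and kept the call with any 1 library left out. Morrbid (Gm14005 here), which controls the survival of short-lived myeloid cells, had 194 and 213 in Control and 100.2, 149.9 and 128 in Prox1 OE and just missed the threshold (log2 fold change of -0.70, SE 0.24, limma adjusted p = 0.0564), which it passed under total-count scaling (-1.13, adjusted p = 0.00791) and with DESeq2 (-0.68, adjusted p = 0.0325).

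**Figure D3:**
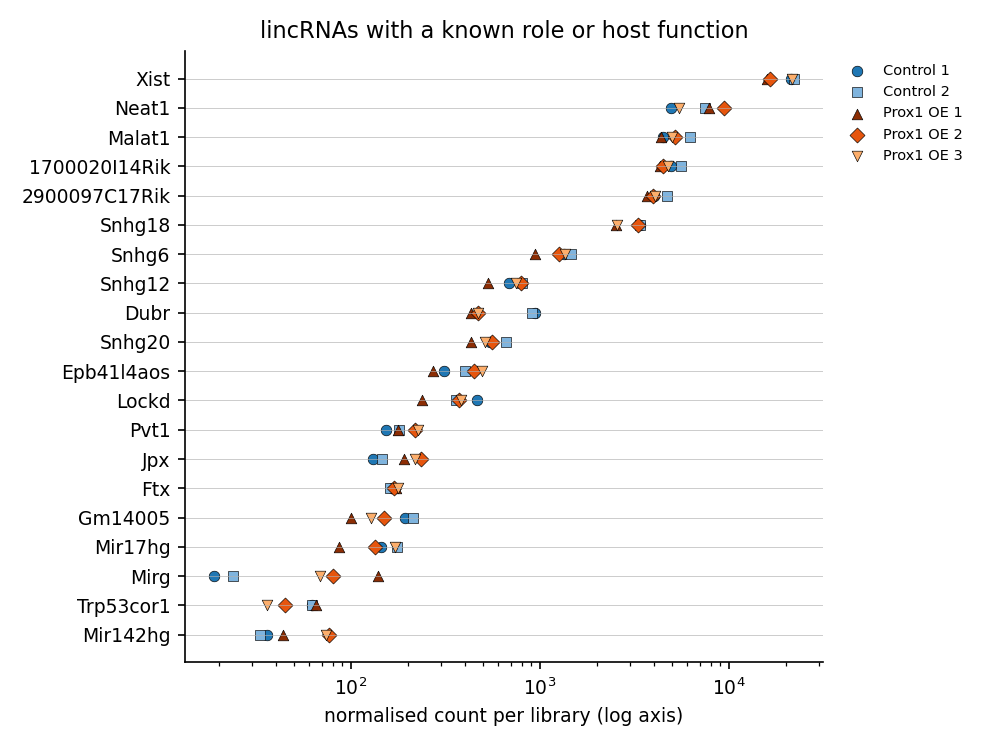
Normalised counts in each of the 5 libraries (x axis, log axis) for the 20 members found in the function lists (y axis, ordered by mean), with blue symbols for Control and brown to orange symbols for Prox1 OE. Mirg (higher), Jpx (higher) and Dubr (lower) are the called members, and the libraries of most others overlap or lie close together. 1700020I14Rik is Cyrano, 2900097C17Rik is Norad and Gm14005 is Morrbid.

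The microRNA host Mirg rose. In the list of microRNA hosts 8 genes were tested, with 2 higher and 1 lower, where 17.1% of all genes tested were higher and 16.2% lower. Of these hosts 3 were members, of which Mirg was called. Mirg (chromosome 12, 109729764 to 109749460, plus strand) is transcribed from the imprinted Dlk1-Dio3 domain and carries a cluster of microRNAs. It had 18.9 and 23.7 normalised counts in Control and 139, 80.2 and 68.3 in Prox1 OE, means of 21.3 ± 3.42 (SD, n = 2) in Control and 95.9 ± 37.9 (SD, n = 3) in Prox1 OE (log2 fold change of 2.06, SE 0.37, limma adjusted p = 0.00707). With a Control mean under 30, Mirg was a member only through Prox1 OE, so its direction was set by the selection. Its Prox1 OE libraries ran in the order of their Prox1 levels, highest in replicate 1, an order that 4 of the 83 higher lincRNAs and 49 of all 322 had. Mirg lost the call without Control replicate 1 (1.90, adjusted p = 0.0685). Meg3 and Rian, left out of the members but transcribed from the same domain on the same strand, had log2 fold changes of 1.52 and 1.18 (limma adjusted p = 0.0177 and 0.0414), and Dlk1, of the paternal allele, fell by 2.30 (adjusted p = 0.00735). Other protein-coding genes of the domain did not share that fall. Dio3 was not called (-0.91, limma adjusted p = 0.472), with overlapping groups. Rtl1, too low to be tested, had 0 and 0.848 normalised counts in Control and 6.13, 2.36 and 2.31 in Prox1 OE. The genes of the domain were named after their values were seen. Mirg holds 26 mature microRNAs of the RefSeq table with 25 different seeds, bases 2 to 8, and mature microRNAs were not measured by these libraries. The pair that shares a seed and 4 others that are spread along the host are shown, on the plus strand of GRCm38.p6 chromosome 12 between 109734145 and 109743784, with the seed in capitals.
mmu-miR-453: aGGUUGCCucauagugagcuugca
mmu-miR-496a-5p: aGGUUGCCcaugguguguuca
mmu-miR-134-5p: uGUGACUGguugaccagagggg
mmu-miR-485-3p: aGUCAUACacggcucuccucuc
mmu-miR-154-3p: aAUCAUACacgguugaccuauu
mmu-miR-410-3p: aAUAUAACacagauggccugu

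Of 20 lincRNAs that hold an annotated microRNA or snoRNA on their strand, 3 were called, all higher, where 33.3% of all genes tested were called and 17.1% were higher. Beside Mirg these were AC157910.3 and Gm32624. Mirg and Gm32624 had Control means under 30, so both reached the mean of 30 only through Prox1 OE, and their direction was set by the selection. AC157910.3, the transcript across Mir122, the microRNA that dominates in hepatocytes, had 134 and 121 normalised counts in Control and 433, 639.5 and 657 in Prox1 OE (log2 fold change of 2.14, SE 0.22, limma adjusted p = 0.00237), and kept the call with any 1 library left out. Gm32624, which holds the small RNA gene Gm25715, had 16.4 and 15.3 in Control and 34.8, 54.3 and 63.7 in Prox1 OE (log2 fold change of 1.58, SE 0.38, limma adjusted p = 0.0176), with the call lost without either Control library, Prox1 OE replicate 2 or Prox1 OE replicate 3 (adjusted p of 0.101, 0.0956, 0.061 and 0.0542). Mir17hg, host of the growth-promoting miR-17-92 cluster, had 145 and 175 in Control and 86.9, 133 and 170.1 in Prox1 OE (log2 fold change of -0.34, SE 0.31, limma adjusted p = 0.429), with overlapping groups. Mir142hg, host of a microRNA of blood cells, had 36.1 and 33.1 in Control and 44.0, 76.7 and 74.1 in Prox1 OE (log2 fold change of 0.85, SE 0.34, limma adjusted p = 0.0942). It passed without Prox1 OE replicate 1 (1.10, adjusted p = 0.0212).

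The highest lincRNAs per length, by mean normalised count per kb of exon, were led by Gm42031 (5834), AW112010 (5196) and Gm10076 (3413). After these came 1700049E15Rik (2770), 1810058I24Rik (2592), Bc1 (2137), Snhg18 (2044) and Tmem250-ps (1772). Gm42031 varied more within groups than between them, at 20556 and 5577 normalised counts in Control and 2286, 15917 and 10645 in Prox1 OE (log2 fold change of -0.55, SE 0.84, limma adjusted p = 0.64). AW112010, an interferon-responsive transcript that is translated from a noncanonical start in macrophages, had 2376 and 2399 in Control and 3998, 5046 and 7068 in Prox1 OE (log2 fold change of 1.13, SE 0.22, limma adjusted p = 0.009). Its Control libraries were nearly alike, and the summed macrophage and T and NK markers given above were also higher in Prox1 OE, with their part in this result not tested. 1700049E15Rik had 3759.5 and 3579.7 in Control and 2004, 2952 and 2204 in Prox1 OE (log2 fold change of -0.64, SE 0.17, limma adjusted p = 0.027). Tmem250-ps, named as a pseudogene and so possibly sharing reads with its parent, had 3281 and 3649 in Control and 4538, 5009 and 5519 in Prox1 OE (log2 fold change of 0.53, SE 0.13, limma adjusted p = 0.0177). The adjusted p of AW112010, 1700049E15Rik and Tmem250-ps was 0.0726, 0.172 and 0.175 without Control replicate 1, and without Control replicate 2 it was 0.055, 0.116 and 0.078. The call of 1700049E15Rik was also lost without Prox1 OE replicate 3 (0.0691) and that of Tmem250-ps without Prox1 OE replicate 2 (0.0524) and under total-count scaling (0.528). With limma without trend, 1700049E15Rik and Tmem250-ps missed the threshold (0.0726 and 0.0527).

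The others of the 8 highest per length were not called. 1810058I24Rik, which encodes a mitochondrial micropeptide of the innate immune response, had 5784 and 6475 normalised counts in Control and 6116, 8937 and 8772 in Prox1 OE (log2 fold change of 0.35, SE 0.18, limma adjusted p = 0.173), and passed without Prox1 OE replicate 1 (0.53, adjusted p = 0.0104). Bc1, a small RNA polymerase III transcript best known from neurons, had 341 and 279.7 in Control and 284, 505 and 385 in Prox1 OE (log2 fold change of 0.30, SE 0.26, limma adjusted p = 0.392), and Gm10076 had 1260.3 and 1216 in Control and 1361, 1171 and 1545 in Prox1 OE (log2 fold change of 0.12, SE 0.15, limma adjusted p = 0.54). By mean count, 21 lincRNAs lay at 1000 or more, of which 5 were higher and 1 lower (median log2 fold change of -0.15), where 24.0% of all genes at that level were higher and 18.8% lower. Of the 182 with means of 30 to 100, 40 were higher and 13 lower (median 0.35), beside 11.8% and 9.16% of all genes at that level. Of the 81 at 100 to 300, 27 were higher and 10 lower (median 0.31), beside 13.5% and 17.5%. Of the 38 at 300 to 1000, 11 were higher and 4 lower (median 0.14), beside 13.5% and 21.0%. Xist, Gm42031, 1810058I24Rik, Neat1 and Malat1 held 38.4% of the normalised counts of all 322.

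The lincRNAs called higher, called lower and not called had close exon numbers and GC content. The median number of exons in the transcript with the most was 3 in each, and median GC content was 47.1%, 47.5% and 47.1%. Median merged exon length was 1439 bases for those called higher, 2434 for those called lower and 2046 for those not called. Among the 322, 47 lincRNAs had 1 exon, 5 of them called higher and 6 lower, beside 17.1% and 16.2% of all genes tested. Most of the 322 were known by number alone, 168 with a Gm name, 96 with a Rik name and 22 with a clone name. They lay on 19 autosomes and the X chromosome, with at most 8 called higher on any (chromosomes 1, 9 and 10). An exon of another gene overlapped 81 of them, 34 on the same strand. Called downstream here were 34 that began up to 5 kb beyond the end of a protein-coding gene on the same strand. Those that began inside such a gene and reached its end were included. Reads of that gene, or reads running past its end, could be counted there.

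Called lincRNAs and their nearest protein-coding gene mostly had the same direction where both were called. A protein-coding start lay within 50 kb for 218 lincRNAs, and in 189 of these pairs both genes were tested. Both were called in 36 pairs (19.05%), with the same direction in 28 (77.8%) and opposite directions in 8. Among 5221 protein-coding genes and their own nearest protein-coding gene, both were called in 719 pairs (13.8%) and in the same direction in 483 of these (67.2%). Divergent pairs had the same direction in 12 of 15, pairs on the same strand in 9 of 14, and facing pairs on opposite strands, where the genes can overlap, in 7 of 7. For protein-coding pairs these shares were 67.0%, 68.6% and 64.2%. Divergent pairs with starts within 5 kb had the same direction in 2 of 4, and 80.4% of such protein-coding pairs did. Among the lincRNAs with both group means of at least 30, 13 pairs had the same direction and 6 opposite directions, a share close to that of the protein-coding pairs. Genes of a pair share libraries, and no test was made. Without Control replicate 1, 3 pairs were called in the same direction and none in opposite directions, without Control replicate 2, 12 and 4, and without Prox1 OE replicate 3, with 24.0% of all genes called, 18 pairs in the same direction.

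Among the closest divergent pairs was that of BC049987 and Treh. BC049987 starts 995 bases from Treh, which encodes trehalase, on the other strand, and had 292 and 476 normalised counts in Control and 1525, 1416 and 2126 in Prox1 OE (log2 fold change of 2.15, SE 0.25, limma adjusted p = 0.00258). Treh rose as well (log2 fold change of 1.68, SE 0.17, limma adjusted p = 0.00234). BC049987 kept its call with any 1 library left out.

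Among facing pairs with shared exon sequence, Gm16548 rose (log2 fold change of 1.66, SE 0.36, limma adjusted p = 0.0127) as did F5, which encodes coagulation factor V (0.93, adjusted p = 0.0107). Gm2061 (log2 fold change of 1.61, SE 0.40, limma adjusted p = 0.0214) and Slc30a10, a manganese exporter (1.26, adjusted p = 0.0111), were higher too. Gm11110 (log2 fold change of -1.23, SE 0.38, limma adjusted p = 0.0428) and Tnfsf9, a ligand that stimulates T cells (-1.29, adjusted p = 0.0168), were lower. Since the use of strand in counting was not stated, each RNA of these pairs cannot be told apart from its partner. Other called lincRNAs close to a coding start had partners that did not pass. A330074K22Rik fell (log2 fold change of -1.56, SE 0.36, limma adjusted p = 0.0166) 226 bases from Gse1 (-0.48, adjusted p = 0.0853), and Gm20186 (log2 fold change of -1.12, SE 0.35, limma adjusted p = 0.0428) 372 bases from Lsm8 (-0.28, adjusted p = 0.182). 2810414N06Rik rose (log2 fold change of 0.64, SE 0.19, limma adjusted p = 0.0359) 353 bases from Edem3 (-0.42, adjusted p = 0.117). Each of these 6 lincRNAs lost its call without Control replicate 1 (adjusted p of 0.109 to 0.219), and without Control replicate 2 all but Gm16548 did (0.0536 to 0.195). Gm11110 was lost also without Prox1 OE replicate 1 (0.0648), and Gm11110, Gm2061, Gm20186 and 2810414N06Rik without Prox1 OE replicate 3 (0.0626 to 0.099). Gm2061, Gm20186 and 2810414N06Rik were lost without Prox1 OE replicate 2 as well (0.0516 to 0.112), and 2810414N06Rik under total-count scaling (0.463). Without a filter, Gm11110, Gm20186 and 2810414N06Rik were lost (0.0847, 0.0786 and 0.0562), and Gm20186 also with edgeR (0.0528) and with limma without trend (0.0634).

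**Figure D4:**
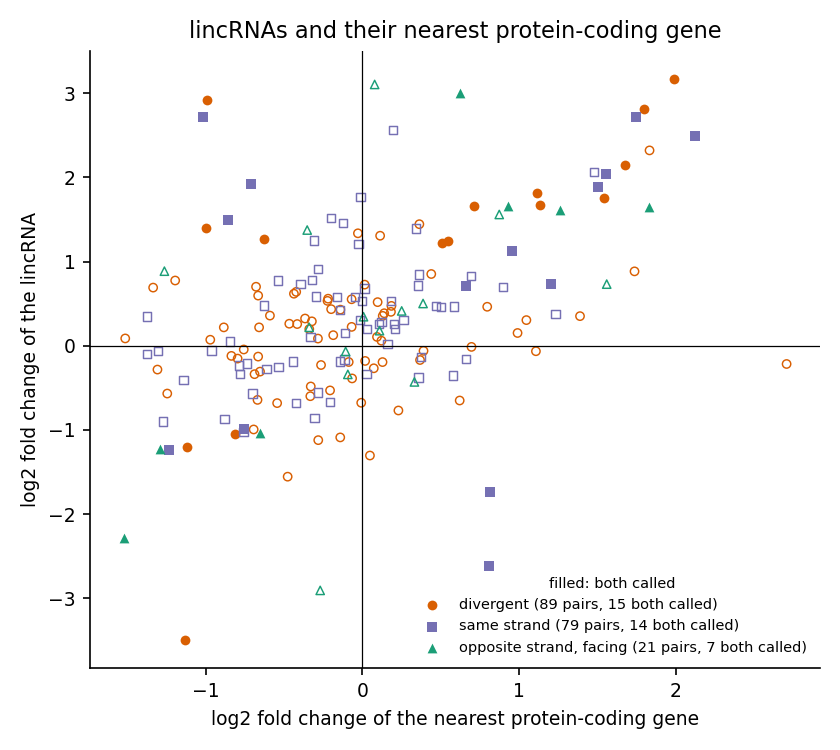
Log2 fold change of each lincRNA (y axis) against that of its nearest protein-coding gene (x axis), for the 189 pairs within 50 kb in which both were tested. Colours and shapes give the orientation, and filled symbols are the 36 pairs in which both were called, 28 of them at upper right or lower left and 8 elsewhere.

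Among the 20 lincRNAs with the largest changes, several had a called neighbour. For those with a group mean under 30 the direction of the lincRNA was set by the selection, among them Gm28548, Gm12498, Gm11752, Gm40438, Gm10636 and Gm32443. The neighbour rose for Gm28548 (Acpp, 1.99), Gm12498 (Gstm1, a glutathione transferase of the liver, 2.13), AC151478.3 (Scd1, the fatty acid desaturase, 1.80), Gm37336 (Coq8a, of coenzyme Q synthesis, 1.75) and Gm11752 (Tbc1d16, 0.62). Pcsk6, a proprotein convertase, whose start lies 58623 bases from that of 1810008I18Rik, rose as well (1.29). Limma adjusted p were 0.0064, 0.00301, 0.019, 0.0033, 0.0477 and 0.00266. Ssx2ip beside Gm10636 (-1.13) and Fam110c beside Gm32443 (-1.53) fell, with adjusted p of 0.00267 and 0.00259. The direction was opposite for Gm32468 and Cfap54, of cilia (-0.99), Gm40438 and Dact1 (-1.02), Eprn and Ndufs6, of respiratory complex I (0.81), and Zfp469 and Zfpm1 (0.82). Within 50 kb, the neighbours of Gm32063 (Smim13, 0.19), Gm49668 (Fam120b, 0.08) and 3830432H09Rik (Tmem185b, -0.27) were not called (limma adjusted p of 0.384, 0.651 and 0.154). Over all 189 pairs of a lincRNA and its nearest protein-coding gene, the neighbour was called in 87.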

How the data were processed

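The deposited values are a signal per gene, made by the authors from read counts divided by DESeq2 size factors after mapping 100 base read pairs of dUTP libraries to mm10 with STAR. The counting tool, its annotation and its use of strand were not given in the sources used here. A second deposited table holds the authors' own comparison (fold changes and p-values) and was not used. All columns of values were assigned to a library. Whole reads were recovered for 100% of values (within 0.01 read). GENCODE matched 55137 of 55397 identifiers (99.5%), and promoters and microRNAs came from RefSeq.

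Members, lists and the pairs described were chosen with earlier results of these data known. limma 3.58.1 in R 4.3.3 (lmFit, eBayes with trend, two-sided) was fitted on log2(normalised count + 1) to all 17105 genes with a mean of at least 10, without covariates, with Benjamini-Hochberg adjustment over all of them and a threshold of 0.05. Fold changes on this scale understate changes of low genes. With 2 against 3 libraries an exact permutation test of 1 gene cannot give a p below 0.1, so none was used. A count of 3 reads was taken as the floor, and 0 members lay at it in a group. The procedure was tested on simulated counts.

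Genes were named by rule: members of the function lists, the 10 largest called changes in each direction, the 8 highest per kb, 3 on each side of the mean of 30, the 8 called members nearest to a protein-coding start, called hosts of small RNAs, and neighbours of these. Others are marked, and 2 genes and 1 motif of the lists, with the results that need them, are not reported here. Alternatives were TMM, upper-quartile and total count scaling, a pseudocount of 0.1 or of 10, a filter at a mean of 50 or none, limma without trend, count models on recovered reads (edgeR 4.0.16, DESeq2 1.42.0), a replicate block, omission of each library, member means of 10 and 100, and members without exon overlap or downstream position. Limits on the group means were added after seeing the data.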

Additional observations from a re-analysis of the deposited data

How the results depend on the processing

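The counts of 83 higher and 28 lower lincRNAs stayed within 1.5 times, and the median of 0.26 kept its sign, under TMM and upper-quartile scaling, both pseudocounts, both filters, limma without trend, edgeR, DESeq2, a member mean of 10 and the removal of overlapping or downstream members. A member mean of 10 widened the set to 548 members, with 107 higher and 35 lower, so the share called was smaller in each direction. Scaling by total count gave 72 lower lincRNAs, a reversed median of -0.16 and 44 pairs with the nearest coding gene in the same direction (28 as reported), and moved the median of all genes from -0.02 to -0.44. Without a filter, 18 such pairs were called. A member mean of at least 100 (140 members) gave 43 higher and 15 lower, with 11 pairs in the same and 5 in opposite directions, and each group mean of at least 30, added after seeing the data, gave 48 higher, a median of 0.12 and 13 pairs in the same and 6 in opposite directions, both from fewer members. With 1 library left out, lincRNAs called higher ran from 15 to 103, lower from 7 to 34, pairs in the same direction from 3 to 34 and in opposite directions from 0 to 12, in each case from the fit without Control replicate 1 to that without Prox1 OE replicate 1. The Prox1 log2 fold change ran from 1.12 to 2.39 over these, and passed the threshold also with edgeR (2.36). Of 948 values of 60 named genes under the alternatives, 864 kept their side of the threshold, 68 no longer passed, 16 newly passed and 0 called values reversed. Among the 864, genes that were not called could change sign, as under total-count scaling.

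Replicate numbers are shared by Control and Prox1 OE, but with deviations correlated at 0.14 and 0.02 over 2 pairs no pairing was established. Under a replicate block, which leaves Prox1 OE replicate 3 without a partner, 81 lincRNAs were higher and 29 lower, 100 of the 111 called lincRNAs stayed called, and Prox1 passed with a log2 fold change of 2.39. Of the named lincRNAs, Neat1 (0.50, adjusted p = 0.0322) and Gm14005 (0.047) newly passed under the block, and Gm11110 (0.0778), Jpx (0.065) and 2810414N06Rik (0.0644) no longer did. Between libraries of 1 group, the chi-square per degree of freedom of the read counts over genes was 40.9 for Control, and 117 (replicates 1 and 2), 127 (1 and 3) and 81.1 (2 and 3) for Prox1 OE, all above sampling noise.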

Other observations

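Noncoding genes of other annotation classes, at the same mean of at least 30, had their own shares of calls, counted with no test. Of 261 antisense genes, 54 were higher and 13 lower in Prox1 OE (median log2 fold change 0.24). Of 182 genes annotated as processed transcripts, 23 were higher and 8 lower (median 0.04), and of 95 genes in the annotation class TEC, transcripts still to be tested by experiment, 5 were higher and 10 lower (median -0.16). Of 13642 protein-coding genes, 2565 were higher and 2594 lower (median -0.04). Gas5, a snoRNA host linked to growth arrest, had 5439.6 and 5920.0 normalised counts in Control and 4191, 6332 and 6229 in Prox1 OE, with overlapping groups (log2 fold change of -0.05, SE 0.19, limma adjusted p = 0.865), and Snhg1 had 1358 and 1280.0 in Control and 1005, 1444 and 1281 in Prox1 OE (log2 fold change of -0.10, SE 0.17, limma adjusted p = 0.677). Called genes of these classes in the lists were Tug1 (-0.44, limma adjusted p = 0.0196), the imprinted Airn (-0.96, 0.00848) and Mir100hg (-1.15, 0.0204), which were lower, and Mirt2 (1.84, 0.0091) and Mir22hg (0.64, 0.0398), which were higher.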
